A study of Homo sapiens with 7 samples.

Results

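The genes described here are 9 genes of the DNA damage response, chosen by name from the sense-strand rows of 3 deposited count tables that list 16044 genes in all. They are the kinases ATM, ATR and CHEK1, the recombination factors BRCA1, BRCA2 and RAD50, the Fanconi anaemia proteins FANCA and FANCD2, and CDK12. All 9 were listed in each table. The label under which they were chosen calls them long and prone to intronic polyadenylation. In the GENCODE canonical transcripts 8 of the 9 spanned more than 50 kb, from 73059 bases (CDK12) to 146036 bases (ATM), and CHEK1 spanned 31985 bases. Intronic reads were not a common property of the 9 genes, as given below.

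All libraries were made from HEK293, an established human embryonic kidney cell line, transfected with siRNAs. The first batch (3′READS) held cells with a control siRNA (siCtrl) and cells with siRNA against Star-PAP (siStar-PAP), PAPα (siPAPα) or PAPγ (siPAPγ). The KD of PAPα and PAPγ together (siPAPαγ) was set against the same siCtrl library in a table of its own. Its label names no batch. Batch 2 held siCtrl and siStar-PAP and was prepared with the later 3′READS+ protocol. Each of the 7 libraries was the only library of its condition in its batch, and nothing in the labels says whether the batches were separate cultures. siCtrl of batch 1 therefore serves 4 of the 5 comparisons, which are not independent of each other.

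Star-PAP, PAPα and PAPγ are nuclear poly(A) polymerases, which add the poly(A) tail after the pre-mRNA has been cleaved at a polyadenylation site (PAS). Cleavage is usually directed by a hexamer such as AATAAA or ATTAAA a short way upstream. A PAS within an intron ends the transcript before the remaining exons, so that the protein is truncated or not made. CDK12, which phosphorylates the tail of RNA polymerase II together with cyclin K, is known for maintaining full-length expression of long DNA repair genes, where its loss favours intronic PASs. Because each read marks the 3′ end of an RNA, read numbers of different genes need no correction for gene length.

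The following 30-base sequences end at the PASs on which the values below turn. They were read from GRCh37, the assembly of the hg19 positions in the tables, on the strand of the gene from 5′ to 3′, with AATAAA or ATTAAA in capitals where it lies within them.
ATM, intron 40, chr11:108186161-108186190, plus strand: aaatgtatcatatcaaatgtatacaaatga
ATM, exon 63, proximal, chr11:108237187-108237216, plus strand: agttctATTAAAtttagttcctgctgttta
ATM, exon 63, distal, chr11:108239800-108239829, plus strand: tgtttttgAATAAAtaattctaaaagcata
CDK12, intron 13, chr17:37685796-37685825, plus strand: tcaattttctaaaggcattgttctaccata
CDK12, exon 14, chr17:37687660-37687689, plus strand: aggtaatcatctgcatttggctactgcaaa
BRCA1, exon 23, chr17:41196318-41196347, minus strand: taacactgcaAATAAActtggtagcaaaca
ATR, exon 47, chr3:142168158-142168187, minus strand: aagtacaacataaatttacgttctcagcaa
FANCA, exon 43, proximal, chr16:89804913-89804942, minus strand: ctcttgttgcactaaaaagtggattacaaa
FANCA, exon 43, distal, chr16:89804813-89804842, minus strand: tttgcgggaaAATAAAccactggtcccaga
Exon and intron numbers are those of the GENCODE canonical transcript. The intronic sites of ATM in intron 40 and of CDK12 in intron 13 had neither hexamer in the last 40 bases, and neither did the main site of ATR.

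Across the 3 tables the members had 29 intronic PASs, of which 10 held AATAAA and 4 more held ATTAAA alone in the last 40 bases. 51.7% had neither, beside 35.7% of the 21410 intronic PASs of all genes. Of the 52 PASs of the members in the 3′-most exon or its extension, 23 held AATAAA and 7 ATTAAA alone, and 42.3% had neither, beside 40.1% of the 50258 such PASs of all genes. The trimer ATA, the DNA form of the AUA element attributed to Star-PAP targets, lay 100 to 41 bases upstream of 24 of the 29 intronic PASs (82.8%), beside 59.8% of all intronic PASs. The trimer also lay there for 35 of the 52 last-exon PASs of the members (67.3%), beside 59.8% of all such PASs. ATM supplies many of the 29 intronic PASs, some of them in the same intron. Only the sense strand was searched, and a match of letters does not show a functional site. A listed intronic PAS of CDK12 in batch 2, with 1 read in each library, ended in a run of As in the genome. It supplies the only intronic reads of CDK12 in batch 2, so that the values of CDK12 there carry no information on its intronic polyadenylation.

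Reads at sense PASs summed to 2347192 in the smallest library, siStar-PAP of batch 2, and to 16191098 in the largest, that of siPAPα. The members had between 2839 and 6042 reads per library in batch 1, but only 397 and 283 in batch 2. Expression is given in RPM, the reads of a gene scaled to a common number of PASS reads, where PASS reads are uniquely mapped reads with untemplated Ts. TUT1, which encodes Star-PAP, had 83 reads in siCtrl and 2 in siStar-PAP of batch 1, but 6 and 4 reads in batch 2, too few to check that KD. PAPOLA (PAPα) had 71 reads in siCtrl, 12 in siPAPα and, against 78 in its own table, 8 in siPAPαγ. PAPOLG (PAPγ) had 5 reads in siCtrl and 15 in siPAPγ, so that its label could not be checked by its reads. The study itself reports immunoblots of the polymerases, by which it found the KDs effective at the protein level. In siStar-PAP of batch 1 PAPOLA had 44 reads (2.66 RPM, against 6.21 in siCtrl) and PAPOLG 28 (1.69 against 0.438). In siCtrl and siStar-PAP of batch 2 PAPOLA stood at 8.91 and 8.0 RPM and PAPOLG at 2.18 and 5.41. The HEK293 markers VIM, NEFL and LIN28B had reads in every library, PAX2 had none in siStar-PAP of batch 1, and PTPRC, HBB, ALB, CD3E and PECAM1 had none.

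Intronic polyadenylation was assessed first. Intronic reads made up 1.12% of the reads of the members in siCtrl of batch 1, 2.22% with siStar-PAP, 0.844% with siPAPα and 0.689% in siPAPγ. The intronic reads numbered 50 in siCtrl and 63 in siStar-PAP, whereas the last-exon reads were 4399 and 2776. FANCA, with no intronic PAS listed in batch 1, held 2721 and 1022 of these last-exon reads, so the pooled share follows its level. In the table of siPAPαγ the members stood at 2.5% in siCtrl and 1.28% in siPAPαγ. Over all genes the intronic share was between 3.67% and 4.95% in every library. In batch 2 the members stood at 14.1% (siCtrl) and 15.5% (siStar-PAP), on few reads. The tables had been filtered to different extents. PASs that never exceeded 5% of the reads of their gene made up 1.82% of the PASs listed in batch 1, 17.9% in the table of siPAPαγ and 12.3% in batch 2, so that an intronic share of 0 in batch 1 can mean that a minor site was not listed. Only ATM, BRCA1 and CDK12 had an intronic PAS in the table of batch 1, and 6 members had 1 or more in each of the other tables.

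ATM, the apical kinase of the response to double-strand breaks, was the member with the largest intronic share in the libraries of batch 1. In siCtrl 26 of its 43 reads at intronic and 3′-most exon PASs were intronic (60.5%, exact 95% interval 44.4 to 75.0), a share above that of 80.6% of the 4149 genes compared. In siStar-PAP 26 of 27 reads were intronic (96.3%, 81.0 to 99.9). In siPAPα 34 of 54 (63.0%) and in siPAPγ 11 of 29 (37.9%) were intronic, and in siPAPαγ 6 of 20 against 30 of 47 (63.8%) for siCtrl in that table. ATM reads thus lay almost wholly in introns in siStar-PAP and mainly in the last exon in siPAPγ and siPAPαγ. The intronic reads were 26 in both siCtrl and siStar-PAP of batch 1, whereas the last-exon reads were 17 and 1. As siStar-PAP was the deeper library, its higher share came with fewer last-exon reads and not with more intronic reads.

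For each pair of libraries, intronic and 3′-most exon reads were compared by a two-sided Fisher's exact test with Benjamini-Hochberg adjustment over all genes with at least 20 such reads. The test compares 2 libraries, not 2 conditions, and treats reads as independent molecules. It called 36.2% of 4919 genes for siStar-PAP, 37.3% of 5074 for siPAPα, 25.7% of 4880 for siPAPγ, 38.1% of 4995 for siPAPαγ and 9.07% of 3483 for siStar-PAP in batch 2. Among the members, ATM passed with siStar-PAP, where its intronic share was 35.8 points higher (adjusted p = 0.00323, exact test), and with siPAPαγ, where it was 33.8 points lower (adjusted p = 0.0432, exact test). The second call was lost when minor PASs were left out of the table (adjusted p = 0.0701, exact test). ATM did not pass with siPAPα (2.5 points, adjusted p = 1.0) or siPAPγ (-22.5 points, adjusted p = 0.222) by the same exact test. Of 3 members tested in each comparison of batch 1, 1 was called with siStar-PAP, 1 with siPAPα and 0 with siPAPγ, counts too small to set against the shares of all genes. For siPAPαγ 1 of 6 members was called, and 0 of 5 in batch 2.

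Some intronic sites of ATM lacked reads in some of the libraries. The site in intron 40, after 2002 of 3056 codons, had 13 reads in siStar-PAP and none in the other libraries of batch 1. A site in intron 18 (chr11:108140072-108140101) had 12 reads in siPAPα, 4 in siStar-PAP and none in siCtrl or siPAPγ. A site in intron 32 had 8 reads in siPAPα alone. A site in intron 5 (chr11:108106675-108106704) had 6 reads in siCtrl, 1 in siPAPα, 4 in siPAPγ, 5 in siPAPαγ and none in siStar-PAP. These sites rest on few reads each and do not make up all intronic reads of ATM. The last exon differed too. All 17 siCtrl reads there lay at the proximal site, 981 bases after the stop codon, whereas the distal site at the annotated 3′ end had 0 reads in siCtrl, 0 with siStar-PAP, 12 with siPAPα, 14 in siPAPγ and 12 in siPAPαγ. In batch 2 the 7 reads of siCtrl and the 4 of siStar-PAP were all intronic.

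**Figure D1:**
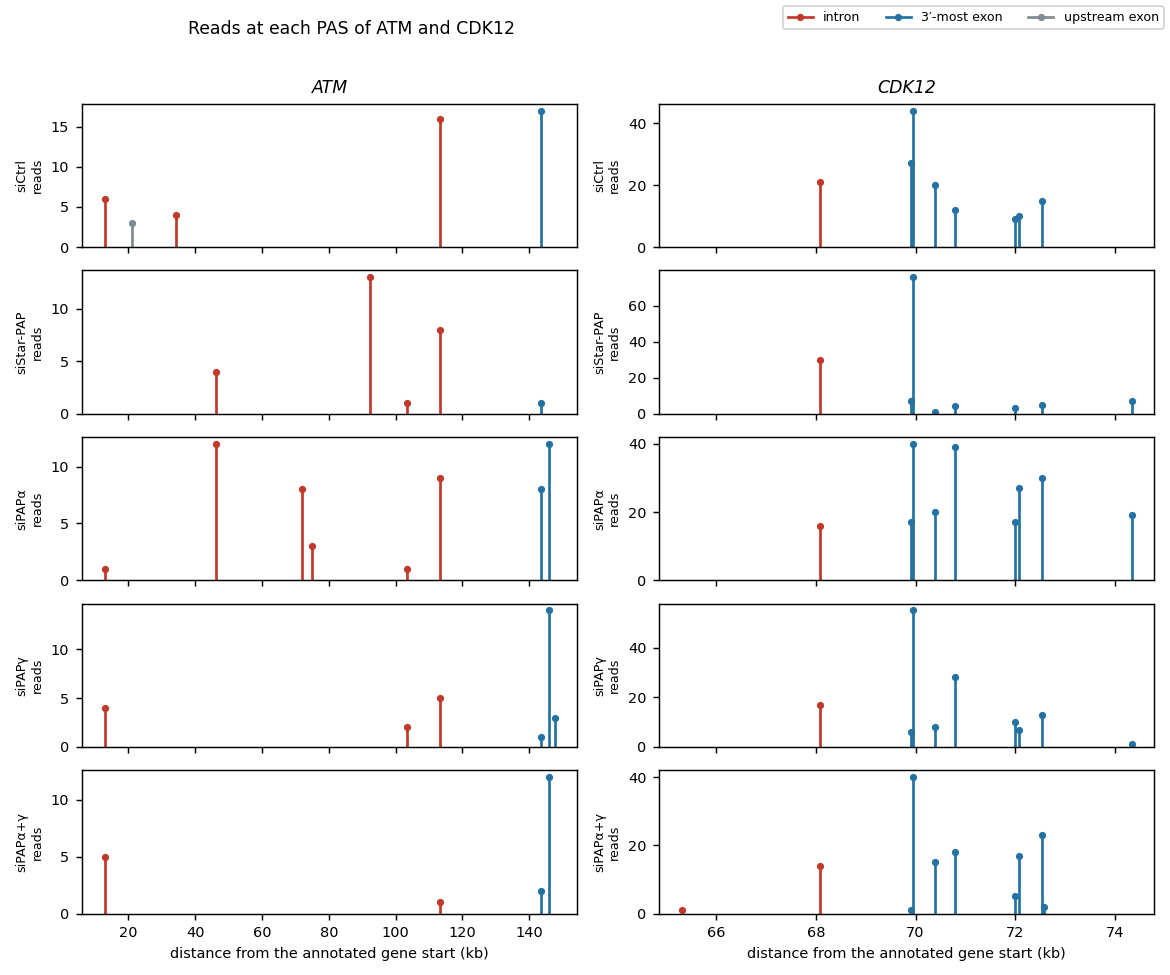
Reads (vertical axis, a separate scale in each panel) at each listed PAS of ATM and CDK12, by distance from the annotated gene start in kb, for siCtrl and the 4 KDs of the first batch and of the siPAPαγ table. Intronic PASs are red, those in the 3′-most exon or its extension blue and those in upstream exons grey, and siStar-PAP has 1 read in the last exon of ATM against 17 in siCtrl.

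CDK12 had a single intronic PAS in the table of batch 1. It lay in intron 13, after 1253 of 1490 codons, 3256 bases from the 5′ end of an intron of 4287 bases. It had 21 of 158 reads in siCtrl (13.3%, 8.42 to 19.6), 30 of 133 with siStar-PAP (22.6%, 15.8 to 30.6), 16 of 225 with siPAPα (7.11%) and 17 of 145 with siPAPγ (11.7%). With minor sites of that intron listed as well, the share was 16.0% in siCtrl and 11.0% in siPAPαγ. siStar-PAP was the highest and siPAPα the lowest of these libraries. None of the differences passed the exact test, with adjusted p = 0.103 for siStar-PAP (9.27 points), 0.119 for siPAPα (-6.18 points), 0.981 for siPAPγ and 0.374 for siPAPαγ. In RPM the intronic site itself stood at 1.84 in siCtrl and 1.81 in siStar-PAP, while the whole gene stood at 13.8 and 8.04 RPM.

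Within the last exon CDK12 was cleaved at several tandem sites. The site 120 bases after the stop codon, printed above, had 27.8% of the reads of the gene in siCtrl, 57.1% (48.3 to 65.7) with siStar-PAP, 17.8% with siPAPα, 37.9% in siPAPγ and 29.4% in siPAPαγ. Its neighbour 87 bases after the stop codon had 17.1% in siCtrl, 5.26% with siStar-PAP, 7.56% with siPAPα, 4.14% in siPAPγ and 0.735% in siPAPαγ. In siStar-PAP the remaining sites farther downstream had 0 to 7 reads each, against 9 to 20 at those used in siCtrl. These shares are descriptions and were not tested. In batch 2 the site 556 bases after the stop codon had the most reads of CDK12, 7 of 14 in siCtrl and 11 of 26 in siStar-PAP.

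BRCA1, a ubiquitin ligase that promotes homologous recombination, had few intronic reads. They were 3 of 39 in siCtrl (7.69%), 7 of 87 with siStar-PAP (8.05%), 1 of 197 with siPAPα (0.508%), 0 of 103 in siPAPγ, which allows up to 2.91%, and 8 of 122 in siPAPαγ (6.56%). The lower share in siPAPα passed the test (-7.18 points, adjusted p = 0.0415, exact test), on 3 and 1 reads. The siCtrl reads lay in intron 3 and those of siStar-PAP and siPAPαγ in intron 22, after 1822 of 1863 codons, so that similar shares came from different sites. In batch 2 all 7 intronic siCtrl reads, of 22, lay in intron 15, with 0 in siStar-PAP. The main site of BRCA1, in exon 23 and printed above, had 27 of 39 reads in siCtrl and 191 of 197 in siPAPα.

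FANCA, a subunit of the Fanconi anaemia core complex, had 4 intronic PASs, none of them listed in batch 1. In the table of siPAPαγ they had 47 of 2817 siCtrl reads (1.67%) and 31 of 2885 in the KD (1.07%, adjusted p = 0.137, exact test). In batch 2 they had 41 of 227 reads in siCtrl (18.1%, 13.3 to 23.7) and 33 of 107 in siStar-PAP (30.8%, 22.3 to 40.5), with adjusted p = 0.0896 by the exact test. The site in intron 36, after 1208 of 1455 codons, had 27 and 21 of these reads. That in intron 10 had 12 and 2, and 16 and 21 in siCtrl and siPAPαγ, and that in intron 26 had 2 and 7, and 8 and 0. FANCA was thus the member with most intronic reads in batch 2 and had a low share where its intronic sites were listed for a library of batch 1.

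The remaining members had few or no intronic reads. RAD50 and BRCA2 had none in any table. ATR had 0 of 1018 reads in siCtrl of batch 1, which allows up to 0.295% at listed PASs, and 3 of 1021 in the other table, at a site in intron 1. FANCD2 had 5 of 200 siCtrl reads and 2 of 352 in siPAPαγ. CHEK1 had no intronic reads in batch 1, but 15 siCtrl reads lay at a site 20 bases upstream of the annotated start, which the tables class with upstream exons, beside 0 with siStar-PAP, 0 with siPAPα and 2 with siPAPγ. In batch 2 CHEK1 had 0 of 8 intronic reads in siCtrl and 2 of 28 in siStar-PAP (7.14%). The sites of FANCD2 that the tables place in the 3′-most exon lie in intron 43 of the canonical transcript, after 1427 of 1451 codons, so the choice of transcript decides how they are counted.

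**Figure D2:**
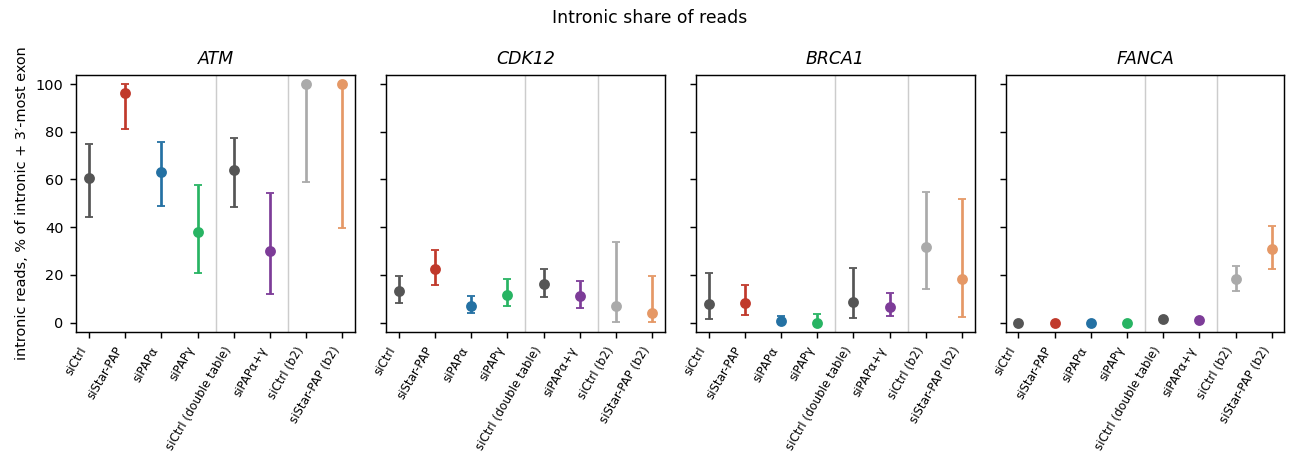
Intronic reads as a percentage of intronic plus 3′-most exon reads (vertical axis) for ATM, CDK12, BRCA1 and FANCA in each library, with exact 95% binomial intervals, and vertical lines between the 3 tables. ATM stands at 96.3% in siStar-PAP and 60.5% in siCtrl of batch 1, whereas CDK12 lies between 7.11% and 22.6% in the libraries of the first batch and siPAPαγ.

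siStar-PAP and siCtrl were also compared over both batches by the edgeR differential usage test, with batch as a block. It called 0 of 6073 genes (0.0%) at an adjusted p of 0.05, with 262 at an unadjusted p under 0.05. Among the 6 members tested the lowest adjusted p was that of FANCA (0.792, edgeR with Benjamini-Hochberg adjustment), with a log2 difference of 0.83. FANCA, ATR and CHEK1 had no listed intronic reads in batch 1, so that their values rest on batch 2. ATM stood at 0.31 and CDK12 at 0.11 in that edgeR fit, both with an adjusted p of 1.0. The fit includes the reads of batch 1, and neither gene was called in it. In batch 2 ATM had no last-exon reads and CDK12 had intronic reads only at the run of As. Batch 2 therefore gives no second measure of the differences of ATM and CDK12 seen in batch 1.

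Gene level was compared next as the log2 ratio of RPM between each KD and its siCtrl, with exact intervals that cover counting error only. A gene was called when it changed more than 2-fold and had more than 50 reads over the pair. Without replicates this is a rule of size and has no p. By this rule 4.44% of 10079 genes were up and 26.2% down with siStar-PAP, 8.5% and 22.1% of 10808 with siPAPα, 5.67% and 20.7% of 10163 in siPAPγ, 6.98% and 26.5% of 10022 in siPAPαγ, and 3.55% and 11.7% of 7127 in siStar-PAP of batch 2. The median log2 ratio of all these genes lay below 0, at -0.45, -0.26, -0.33, -0.38 and -0.16 in that order. With TMM factors the medians were between 0.01 and 0.08 and the split was nearly even, with 1173 genes up and 1295 down with siStar-PAP, 1617 and 1492 with siPAPα, 1151 and 1118 in siPAPγ, 1478 and 1502 in siPAPαγ, and 426 and 589 in batch 2.

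Of the 8 members with enough reads in batch 1, 0 were up and 3 down with siStar-PAP, 1 up and 1 down with siPAPα and with siPAPγ, and 1 up and 2 down in siPAPαγ. Their median log2 ratios were -0.6, -0.62, -0.53 and -0.75, or -0.15, -0.36, -0.2 and -0.36 relative to the medians of all genes. With TMM factors 1 was up and 1 down with siStar-PAP, with siPAPα and with siPAPαγ, and 1 up and 0 down with siPAPγ. Read against the background shares above, counts over 8 genes set the members apart in no comparison. Genes of 50 kb or more, a class taken after the data were seen, had medians within 0.08 of those of all genes in every comparison.

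FANCA had the largest difference with siStar-PAP among the members with enough reads. It stood at 238.0 RPM in siCtrl and 61.8 in siStar-PAP of batch 1, and at 156.0 in siPAPα, 161.0 in siPAPγ and 154.0 in siPAPαγ. In batch 2 it stood at 45.0 RPM in siCtrl and 25.2 in siStar-PAP. It was lower in siStar-PAP than in siCtrl in both batches. The log2 ratio was -1.95 (-2.05 to -1.84) in batch 1 and -0.84 (-1.18 to -0.5) in batch 2, or -1.5 and -0.67 relative to all genes. The other KDs had log2 ratios from -0.68 to -0.56, within 0.35 of the median of all genes. Over both batches the edgeR quasi-likelihood test gave a log2 fold change of -1.06 (SE 0.344) with an adjusted p of 0.119, so FANCA was not called.

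The proximal site of FANCA, 100 bases upstream of its distal partner, held 9.33% (8.27 to 10.5) of the reads in siCtrl of batch 1. It held 13.1% with siStar-PAP, 17.4% (16.2 to 18.6) with siPAPα, 13.7% in siPAPγ and, of the reads at these 2 sites, 17.8% (16.4 to 19.2) in siPAPαγ. Each KD set against siCtrl of batch 1 had a larger proximal share than it, and the interval of siCtrl did not overlap theirs. The proximal site has no hexamer and the distal site has AATAAA, as shown by the sequences above. In batch 2, where more FANCA sites were listed, the share between these 2 sites alone was 40.7% (32.4 to 49.5) in siCtrl and 37.8% (22.5 to 55.2) in siStar-PAP, with overlapping intervals.

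BRCA1 was the only member called up in batch 1. It stood at 3.41 RPM in siCtrl, 5.26 with siStar-PAP, 7.85 with siPAPα and 6.96 in siPAPγ, and at 3.06 in siCtrl and 6.49 in siPAPαγ of the other table. All KDs set against siCtrl of batch 1 were above it. The log2 ratios were 0.62 (0.06 to 1.21), 1.2 (0.7 to 1.74), 1.03 (0.48 to 1.6) and 1.08 (0.53 to 1.67), and the last 3 passed the rule. With TMM factors siStar-PAP passed as well (1.1, 0.54 to 1.69). These ratios share 39 or 35 siCtrl reads as their denominator. In batch 2 BRCA1 stood at 4.36 RPM in siCtrl and 2.59 in siStar-PAP (-0.75, -1.94 to 0.35), on 22 and 11 reads. The edgeR quasi-likelihood fit over both batches gave 0.39 (SE 0.671, adjusted p = 0.852).

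ATM stood at 4.03 RPM in siCtrl, 1.63 with siStar-PAP, 2.15 with siPAPα and 1.96 in siPAPγ, and at 4.38 in siCtrl and 1.06 in siPAPαγ. It was below siCtrl in each KD. The log2 ratio passed the rule with siStar-PAP (-1.3), siPAPγ (-1.04) and siPAPαγ (-2.04, -2.87 to -1.27), but with TMM factors only siPAPαγ passed (-1.61), with -0.82 for siStar-PAP and -0.66 for siPAPγ. Batch 2 had 7 and 4 reads.

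CHEK1, the checkpoint kinase downstream of ATR, stood at 14.7 RPM in siCtrl, 5.44 with siStar-PAP, 8.09 with siPAPα and 8.45 in siPAPγ, and at 14.9 and 6.23 in siCtrl and siPAPαγ. All KDs set against siCtrl of batch 1 were below it. The log2 ratio passed the rule with siStar-PAP (-1.43) and siPAPαγ (-1.26), but neither passed with TMM factors (-0.96 and -0.83). In batch 2 the order was reversed, with 1.58 RPM in siCtrl and 6.59 in siStar-PAP on 8 and 28 reads. The edgeR quasi-likelihood fit over both batches gave 0.31 (SE 0.621, adjusted p = 0.875).

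ATR, the apical kinase of the response to replication stress, stood at 89.1 RPM in siCtrl, 67.1 with siStar-PAP, 32.3 with siPAPα and 58.7 in siPAPγ, and at 89.4 and 51.0 in siCtrl and siPAPαγ. siPAPα was the lowest of these libraries. Its log2 ratio was -1.46 (-1.6 to -1.33), or -1.21 relative to all genes, and it also passed with TMM factors (-1.13). With siStar-PAP the ratio was -0.41, but 0.07 with TMM factors. In batch 2 ATR stood at 2.38 RPM in siCtrl and 2.35 in siStar-PAP. Its siCtrl level was 37.5-fold higher in batch 1 than in batch 2, a ratio above that of 99.0% of 9570 genes. Nearly all ATR reads lay at the printed site, 81 bases upstream of the annotated 3′ end. Protocol and batch cannot be told apart here.

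BRCA2, a mediator of homologous recombination, had the fewest reads. They were 16 in siCtrl, 0 with siStar-PAP, 11 with siPAPα, 0 in siPAPγ and 4 in siPAPαγ, and 25 in siCtrl and 8 in siStar-PAP of batch 2. Its reads did not exceed siCtrl in any KD. With 0 reads in the KD, the exact intervals of the log2 ratio had upper limits of -2.48 with siStar-PAP and -2.32 with siPAPγ of batch 1. The log2 ratio in batch 2 was -1.4 (-2.75 to -0.2). No comparison reached more than 50 reads. The edgeR quasi-likelihood fit gave -2.48 (SE 1.24) with an adjusted p of 0.357.

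RAD50, the ATPase of the MRE11 complex, stood at 9.71 RPM in siCtrl, 8.7 with siStar-PAP, 13.0 with siPAPα, 9.06 in siPAPγ and 12.5 in siPAPαγ, and at 12.9 and 16.2 in batch 2. Apart from batch 2, siPAPα and siPAPαγ were the highest, with log2 ratios of 0.42 (0.1 to 0.74) and 0.36 (0.03 to 0.7). With siStar-PAP the ratio was -0.16, but 0.32 with TMM factors. RAD50 used up to 12 tandem sites in a table. The site 2393 bases after the stop codon (chr5:131980420-131980449) held 27.9% (19.8 to 37.2) of its reads in siCtrl, 47.2% with siStar-PAP, 49.2% with siPAPα, 44.8% in siPAPγ and 54.7% in siPAPαγ. Its share was larger in each KD set against siCtrl of batch 1 than in that siCtrl. In batch 2 it held 7.69% and 8.7%.

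FANCD2, which the core complex monoubiquitinates, stood at 16.6 RPM in siCtrl, 13.6 with siStar-PAP, 12.1 with siPAPα and 18.9 in siPAPγ, and at 17.5 and 18.7 in siCtrl and siPAPαγ. It was not called in any comparison, with log2 ratios from -0.46 to 0.18 in batch 1. With siStar-PAP the ratio was -0.29, but 0.19 with TMM factors. In batch 2 it stood at 3.37 and 4.71 RPM on 17 and 20 reads.

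CDK12 stood at 13.8 RPM in siCtrl, 8.04 with siStar-PAP, 8.97 with siPAPα and 9.8 in siPAPγ, and at 14.3 and 7.24 in siCtrl and siPAPαγ. Each KD set against siCtrl of batch 1 was below it, but none passed the rule. The log2 ratios were -0.78, -0.62, -0.5 and -0.98, or -0.34, -0.37, -0.17 and -0.6 relative to all genes. In batch 2 it stood at 2.77 RPM in siCtrl and 6.12 in siStar-PAP, on 14 and 26 reads. The edgeR quasi-likelihood fit gave 0.38 (SE 0.507, adjusted p = 0.802). Cyclin K (CCNK), its partner, stood at 16.0 RPM in siCtrl and between 23.9 and 31.6 in the KDs of the first batch and siPAPαγ, with log2 ratios of 0.64, 0.94, 0.58 and 0.93 and of 0.53 (0.22 to 0.83) in batch 2, and did not pass 2-fold. CDK13, the closest relative of CDK12, stood at 3.41 RPM in siCtrl, 0.423 with siStar-PAP, 4.82 with siPAPα and 1.96 with siPAPγ. It stood at 2.8 and 2.39 RPM in siCtrl and siPAPαγ, and at 11.7 and 7.06 in batch 2. The reads were 39, 7, 121 and 29 in batch 1 and 59 and 30 in batch 2. The log2 ratios were -3.01, 0.5 (-0.03 to 1.06), -0.8, -0.23 and -0.73 in that order, the first on too few reads to be called.

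**Figure D3:**
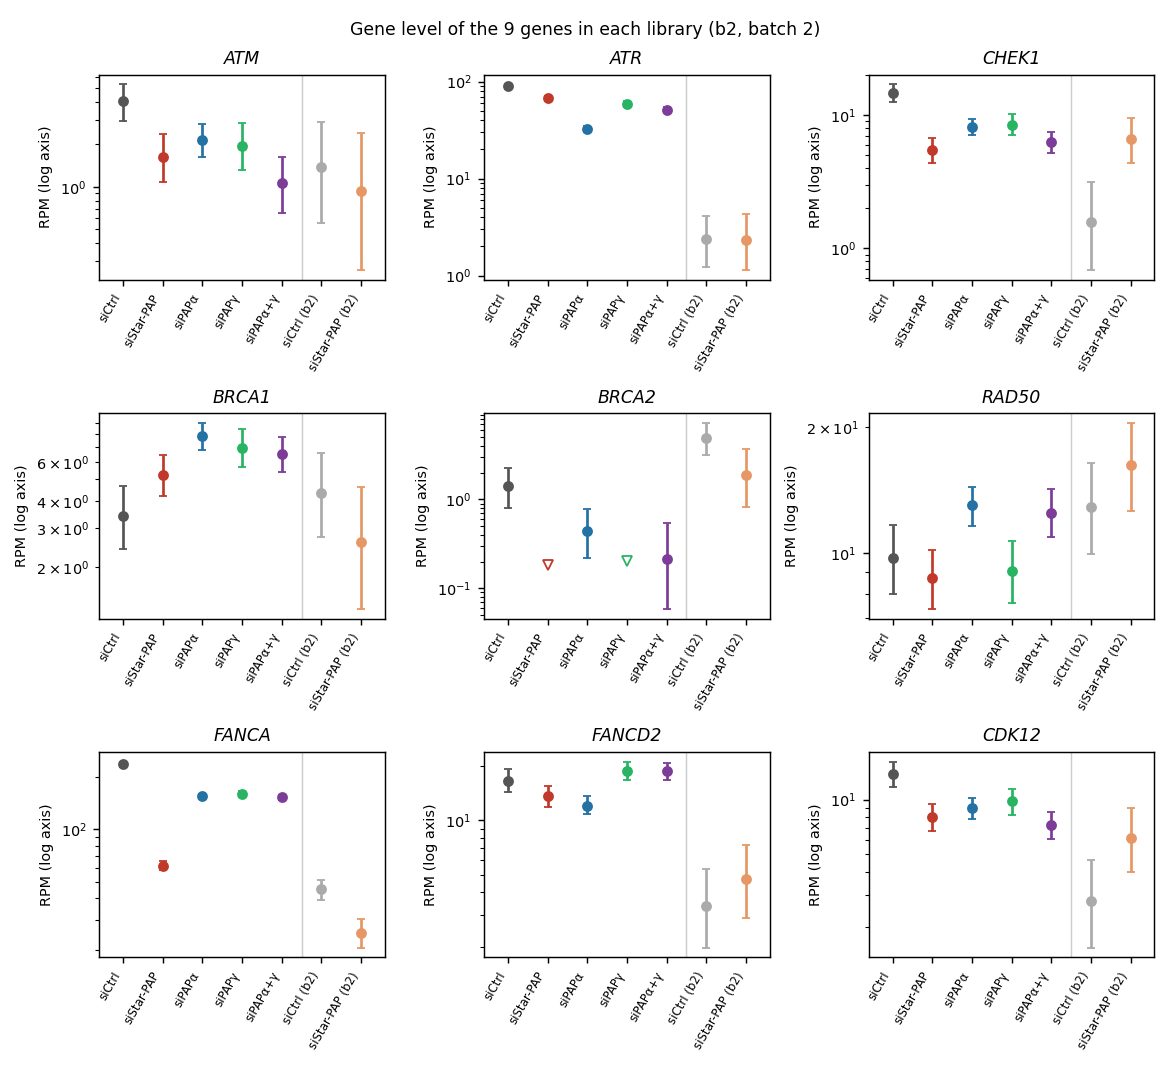
Level of each of the 9 genes in RPM (vertical axis, log scale, different range in each panel) by library, with exact 95% Poisson intervals, batch 2 to the right of the line, and open triangles at 3 reads where no read was listed. ATR stands at 89.1 RPM in siCtrl of batch 1 and 2.38 in batch 2, and BRCA1 is above siCtrl in every KD of the first batch.

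**Figure D4:**
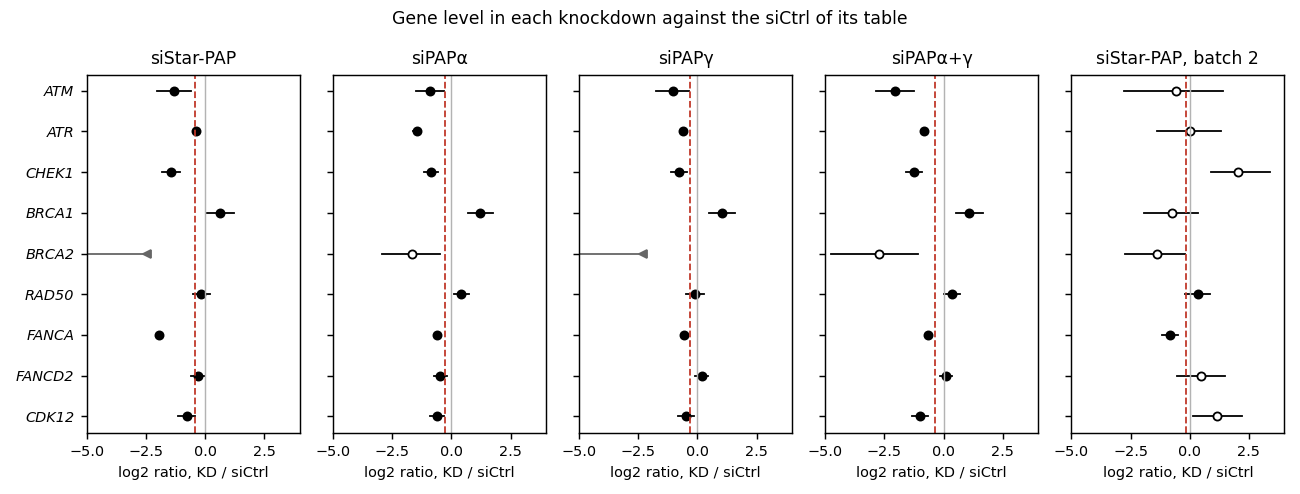
Log2 ratio of RPM of each KD to its siCtrl (horizontal axis) for the 9 genes, with exact 95% intervals, the median of all genes as a dashed line, open circles for genes with 50 or fewer reads over the pair, and grey arrows for the upper bound where the KD had 0 reads. FANCA is at -1.95 with siStar-PAP of the first batch. BRCA1 lies to the right of 0 in every KD of the first batch and in siPAPαγ.

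Among 6132 genes with at least 20 reads in every library, those nearest to CDK12 over the 5 log2 ratios were CDH7, SOX11 and NSDHL, with root mean square differences of 0.0639, 0.142 and 0.205 on the log2 scale. Like CDK12 they were below siCtrl in batch 1 and above it in batch 2. The comparison rests on 7 libraries, 4 of the ratios share a control, and CDK12 itself had under 20 reads in siCtrl of batch 2.

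Over both batches, 274 of 11878 genes (2.31%) were called in the edgeR quasi-likelihood fit for siStar-PAP against siCtrl at an adjusted p of 0.05, 146 up and 128 down, and 0 of the 9 members. The median log2 fold change of the members was 0.31, beside 0.0 for all genes. Without the batch block 0 genes were called, with 54 at an unadjusted p under 0.05, and DESeq2 called 288. Of 149 further genes in 6 lists of DNA repair and transcription kinases, 1 rose and 1 fell in the edgeR fit, with a median of 0.01. APEX1, the endonuclease of base excision repair, rose by 1.54 on the log2 scale (adjusted p = 0.0251), with 317 and 1160 reads in siCtrl and siStar-PAP of batch 1 and 4006 and 7001 in batch 2. HEXIM1, an inhibitor of the elongation kinase P-TEFb, fell by 2.12 (adjusted p = 0.0449), with 89 and 20 reads in batch 1 and 63 and 11 in batch 2.

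By the rule of size, the pathway genes had 3 up and 42 down of 138 with siStar-PAP, 9 and 21 of 148 with siPAPα, 3 and 28 of 143 with siPAPγ, 7 and 30 of 138 with siPAPαγ, and 2 and 9 of 104 in batch 2, with medians within 0.08 of those of all genes. On this scale falls outnumbered rises among all genes, with 4.44% up and 26.2% down with siStar-PAP. Beside that, for homologous recombination 2 of 33 were up and 12 down with siStar-PAP, for the Fanconi anaemia pathway 0 and 4 of 21, for damage signalling 0 and 9 of 23, for end joining 0 and 3 of 12, for mismatch and excision repair 1 and 11 of 36, and for CDK12 partners and elongation kinases 0 and 3 of 13.

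For the intronic share of the pathway genes, the exact test called 16 higher and 9 lower of 68 with siStar-PAP, 2 and 24 of 70 with siPAPα, 7 and 11 of 70 with siPAPγ, 3 and 23 of 70 with siPAPαγ, and 4 and 0 of 52 in batch 2. For all genes these counts were 983 and 800, 487 and 1407, 425 and 830, 516 and 1389, and 185 and 131. The median difference of the pathway genes was 0.77, -4.97, -2.42, -5.74 and 0.5 points, beside 0.0, -1.94, -0.39, -2.59 and 0.0 for all genes.

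ERCC4, a nuclease subunit, had a higher intronic share with siStar-PAP in both batches, at 2.86% in siCtrl and 11.1% in siStar-PAP of batch 1 (adjusted p = 0.0293, exact test) and at 7 of 18 and 12 of 12 reads in batch 2 (adjusted p = 0.0125, exact test). In the table of siPAPαγ, which lists more minor sites, the same siCtrl library had 22 of 158 ERCC4 reads in introns (13.9%), above the siStar-PAP share of batch 1. TTI1, a cofactor in the maturation of ATM and ATR kinases, had 50.8% in siCtrl, 57.7% with siStar-PAP, 3.58% with siPAPα, 12.6% in siPAPγ and 8.42% in siPAPαγ. In batch 2 TTI1 stood at 6.51% in siCtrl and 5.36% in siStar-PAP, so siCtrl of that batch was itself low. MSH3 was also low in the KDs of the canonical polymerases, with 50.9% in siCtrl and 42.5% in siStar-PAP of batch 1, but 12.2% with siPAPα and 13.5% with siPAPγ, and 55.1% and 10.4% in the other table. In batch 2 MSH3 stood at 75.0% in siCtrl and 88.2% in siStar-PAP. The polymerase REV1 was called lower in the 4 comparisons with siCtrl of batch 1, from 75.0% on 20 siCtrl reads to between 2.08% and 34.3%, but stood at 69.2% in siCtrl and 71.4% in siStar-PAP of batch 2. RAD17, a checkpoint clamp loader, had 0 of 25 intronic reads in siCtrl and 10 of 10 in siStar-PAP. Its share was also called higher in siPAPγ (43.5%) and siPAPαγ (21.6%), and was 13.9% in siPAPα, which was not called. Others named by the rule were MMS22L and ERCC8, with lower shares, and DCLRE1C and TOPBP1, with higher shares, in 2 or 3 comparisons each. TOPBP1 went the other way in batch 2, with 30.3% in siCtrl and 0.0% in siStar-PAP, which was not called.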

How the data were processed

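The authors mapped 3′READS reads with Bowtie2 to hg19 (submitters' processing notes), kept PASS reads, clustered PASs and deposited the counts of PASS reads per PAS of a RefSeq gene, not normalized. The counts were summed per gene over sense PASs, and RPM used the PASS totals of the study. All count columns were mapped to a sample. The members and lists were chosen with earlier results of these data known. Named genes were the 9 members, the KD targets, CCNK, CDK13, up to 10 pathway genes called in the fit over both batches, up to 10 called for intronic share in the same direction in at least 2 comparisons (largest mean difference), and the 3 genes nearest to CDK12. PASs of members were named from 5 intronic reads or 10% of the reads of the gene, and others singled out were chosen after their values were seen.

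The replicated fits used edgeR 4.0.16 (TMM factors, default expression filter, quasi-likelihood test, Benjamini-Hochberg adjustment) in R 4.3.3 with DESeq2 1.42.0 as an alternative, and batch as a block with 1 residual degree of freedom. The labels give the batch, and batch deviations of siCtrl and siStar-PAP correlated at r = 0.912 over 6279 genes. Fisher's exact tests used scipy 1.17.1 and stand in for the program of the study. Intervals are exact (Clopper-Pearson or Poisson, 95%), cover counting error only, and 0 reads were taken to allow 3. The steps were tested on simulated data. Alternatives covered scaling, pseudocount, filters on reads and PASs, the region compared, the block and each batch left out. Annotation was GENCODE v44 lifted to GRCh37. Upstream antisense rows were not used. Last-exon sites picked by the rule are described in part, and a gene and a site that it picked are not reported here.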

Additional observations from a re-analysis of the deposited data

Results flagged for a closer look

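CHEK1 and CDK12 moved in opposite directions with siStar-PAP in the 2 batches, with exact counting intervals of the RPM ratios on either side of 0. For CHEK1 the log2 ratio of siStar-PAP to siCtrl was -1.43 (-1.82 to -1.06) in batch 1 and 2.06 (0.88 to 3.4) in batch 2. For CDK12 it was -0.78 (-1.13 to -0.44) and 1.14 (0.15 to 2.19). With TMM factors the batch 1 value was -0.96 (-1.34 to -0.58) for CHEK1 and -0.3 (-0.65 to 0.04) for CDK12, whose interval then includes 0. The difference between the batches was not tested, since each has 1 library per condition. In batch 2 these values rest on 8 and 28 reads of CHEK1 and on 14 and 26 reads of CDK12, and the batches also differ in protocol and siCtrl level, with CHEK1 9.28-fold and CDK12 4.99-fold higher in siCtrl of batch 1. The part of these differences in the result was not tested.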

How the results depend on the processing

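Most counts of called genes stayed within 1.5 times their value. The exceptions were the genes past 2-fold in batch 2 with at least 20 reads (2035, against 1084), and the edgeR fit over both batches without an expression filter (444, against 274) or without the replicate block (0). The block, which follows the batches named in the labels, changed no call of a member. In that fit CHEK1 stood at -0.01 without the block. With a batch left out, its log2 fold change ranged from -0.91 to 2.16, that of BRCA1 from -0.55 to 1.11 and that of CDK12 from -0.26 to 1.29. For the intronic difference with a batch left out, the log2 ratio of intronic to last-exon reads in siStar-PAP over that in siCtrl was used. A fraction of a read was added to each count. This ratio is another measure than the log2 difference of the edgeR fit, and its values are not directly comparable with those of the fit. The ratio ranged from -0.74 to 3.54 for ATM, from -0.92 to 0.91 for CDK12 and from -0.13 to 2.88 for ATR. The -0.74 of ATM and the -0.13 and 2.88 of ATR exist only through that addition. ATM had no last-exon reads in batch 2, and ATR no intronic reads in batch 1 or in siCtrl of batch 2. The -0.92 of CDK12 rests on the run of As in batch 2. For CHEK1 the fit over both batches gave -1.03 with all upstream sites. The ATM intronic share in siPAPα differed by -0.0805 points with all upstream sites. BRCA1 in siPAPα was below 10 points. The causes were not tested. The alternative without the extended region of the 3′-most exon was not run, because the tables do not separate it. Low reads of the members in batch 2 limit all its values.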
